A study of Mus musculus with 2 samples.

Results

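The genes described here carry the calcium, diacylglycerol and NFAT branches of antigen receptor signalling in mouse immature B cells: the inositol trisphosphate receptors Itpr1 and Itpr2, the store-operated entry proteins Stim1 and Orai1, the protein kinase C genes Prkcb and Prkcd, the diacylglycerol kinases Dgka and Dgkd, and the transcription factors Nfatc1 and Nfatc2. They were chosen by name for their function, and every non-control probe carrying a member's name or an older synonym was kept. This gave 10 genes with 24 probes, of 27670 gene names and 41174 probes on the array. Orai1 was listed under Tmem142a and Prkcb under Prkcb1.

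Autoreactive cells came from BALB.B mice of genotype 3-83Igi, Rag1-/-, H-2b, and non-autoreactive cells from BALB/c mice of genotype 3-83Igi, H-2d. The 3-83Igi allele, which all animals carried, places a B cell receptor in the immunoglobulin loci, and this receptor binds H-2b class I molecules, which of these strains only BALB.B has. Both groups were untreated bone marrow cells, pooled and sorted as B220+CD23-CD43-IgD-, and no age was given. Pools of autoreactive cells, numbered 1 and 2, were labelled with Cy5 and each was hybridised against non-autoreactive cells labelled with Cy3, on 2 two-colour Agilent arrays. The series design counts 2 biological replicates in each group, but the labels do not say which animals were pooled, so the p-values measure the spread between these samples, which may be technical. Strain, haplotype, Rag1 genotype and dye all followed the groups, so their effects cannot be told apart from that of autoreactivity.

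When a B cell receptor binds antigen, phospholipase C gamma cleaves a membrane lipid into inositol trisphosphate and diacylglycerol. Inositol trisphosphate opens its receptors on the endoplasmic reticulum, the emptied store is sensed by Stim1, and Stim1 opens the Orai1 channel in the plasma membrane. Calcium then acts through calmodulin and calcineurin, which dephosphorylates NFAT proteins so that they enter the nucleus, while diacylglycerol recruits protein kinases C and Ras exchange factors until diacylglycerol kinases convert it to phosphatidic acid. In chronically stimulated, anergic B cells this branching is known to be unbalanced, with calcium and NFAT signals persisting after others have faded.

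On each array, 54.1% to 57.4% of the 43379 gene spots exceeded background clearly, depending on the channel, and no gene spot reached saturation. Precision is limited by the number of arrays. All 8 B lineage markers examined were well above background in every sample. H2-Ea, a class II gene that mice of the H-2b haplotype do not express, had log2 ratios of -5.22 and -5.26, so the cells without this transcript were those labelled with Cy5. The ratios of array 2 were more widely spread than those of array 1, with SDs of 0.48 and 0.34 over the probes tested. Values for markers of other cell types stand with the results below. In sorted pools such as these, fewer cells of a type and less RNA per cell cannot be told apart.

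Of the 24 probes, 19 gave a signal well above background in a channel or both, on array 1 and on array 2 alike, and were tested. Levels below are log2 intensities after loess and Aquantile scaling, with array 1 before array 2 in each group. A log2 ratio is autoreactive over non-autoreactive, its error is limma's standard error (SE, n = 2 arrays), and its adjusted p is limma's, adjusted by Benjamini-Hochberg over the 22613 probes that were tested, at a threshold of 0.05. With 1 residual degree of freedom per probe against a prior of 5.10, most of the weight in each SE comes from the array-wide spread. Levels of different probes are not compared, since probes differ in hybridisation.

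Of the 19 probes tested, 1 was higher in autoreactive cells, a probe of Dgkd at 2.15-fold, and 2 were lower, both probes of Itpr1 at 1.70-fold. The remaining 16 did not pass. Over the whole array 5.36% of probes passed, 718 higher and 494 lower. By the brightest probe of each gene, Dgkd was higher, Itpr1 was lower and 8 members did not pass, beside 6.16% of all genes. The log2 ratio was below 0 on both arrays for 13 of the 19 probes, above 0 on both for 4, and of unlike sign for 2. Among all probes tested, 34.0% were below 0 on both arrays. The median over the members' probes was -0.27, against 0.01 over all probes, and it was -0.13 on array 1 and -0.29 on array 2. The normalization bears on these signs: median centring over all gene spots in place of loess moved the median of all probes to 0.54 and that of the members' probes to 0.44, and centring over the probes tested left them at 0.00 and -0.10.

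**Figure D1:**
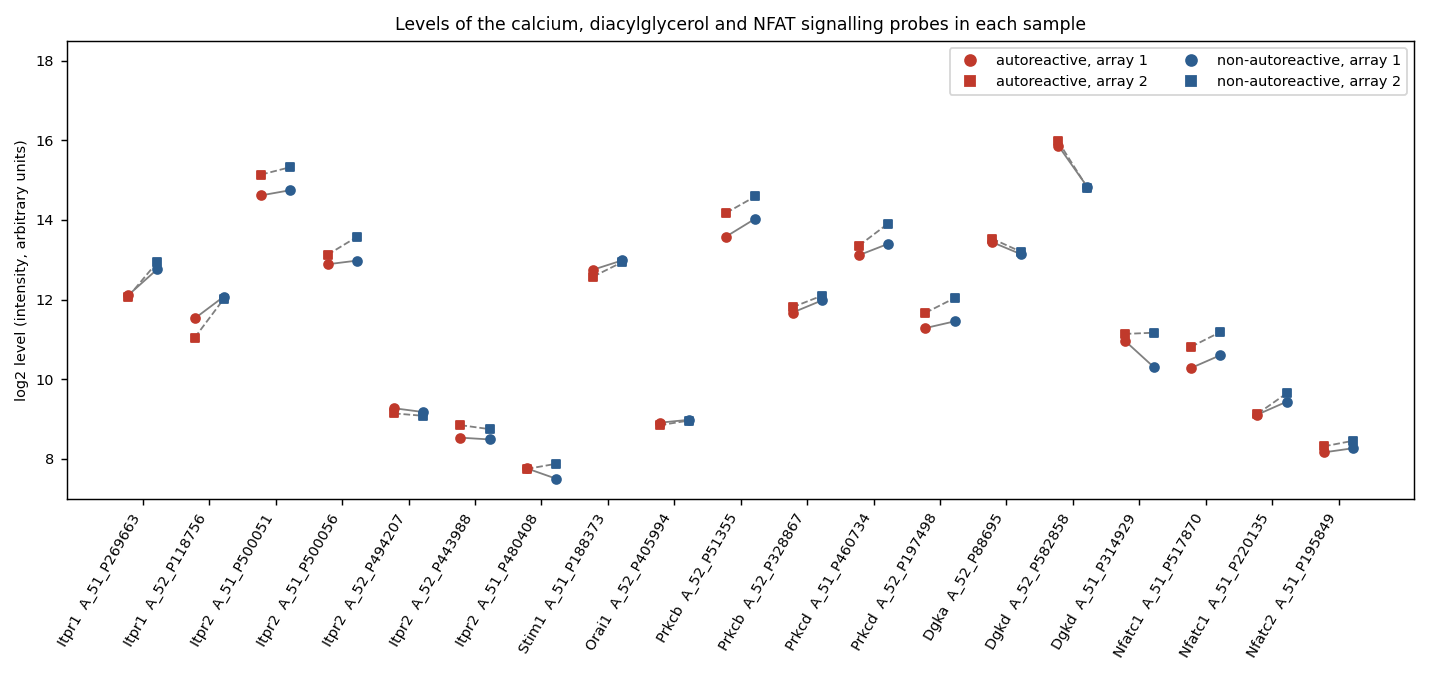
Log2 intensity of each tested probe in the autoreactive and non-autoreactive samples of array 1 and array 2, a point per sample. The Itpr1 probes sit lower, and the brighter Dgkd probe A_52_P582858 higher, in both autoreactive samples than in both non-autoreactive samples. The groups overlap at 10 of the 19 probes, beside 12284 of the 22613 probes tested on the whole array.

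Itpr1, an inositol trisphosphate receptor that releases calcium from the endoplasmic reticulum, was lower in autoreactive cells at both of its probes. Probe A_51_P269663 (chromosome 6, 108645064 to 108645123, plus strand, in the deposited coordinates, whose genome build is not given in the sources used here) had levels of 12.11 and 12.07 in autoreactive cells, against 12.77 and 12.95 in non-autoreactive cells. Both autoreactive samples were thus below both non-autoreactive samples, by more than either group's samples differed from each other. The arrays gave log2 ratios of -0.66 and -0.87, with a mean of -0.76 ± 0.13 (SE, n = 2 arrays, limma adjusted p = 0.0287). The second probe, A_52_P118756, lies 262 bases away at 108644742 to 108644801 and had levels of 11.52 and 11.04 in autoreactive cells, against 12.08 and 12.02 in non-autoreactive cells. These groups were separate as well, with the array 2 autoreactive sample the lowest. Its log2 ratios were -0.55 and -0.98, with a mean of -0.76 ± 0.15 (limma adjusted p = 0.0430). The probes ranked 486 and 487 from the lowest of all probes tested. They measure neighbouring stretches of the same transcript and are not independent of each other. The first call held in 6 of 10 other settings and the second in 3 of 9. Neither held with the deposited log ratios, where the means were -0.77 and -0.80 with limma adjusted p of 0.0620 and 0.0726, and under median centring of all gene spots the values were 0.02 and -0.07, which is -0.52 and -0.60 relative to the median of all probes in that setting.

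Itpr2, a receptor of the same family, had 6 probes and none passed. The brightest, A_51_P500051 (chromosome 6, 146189827 to 146189886, minus strand), had levels of 14.62 and 15.14 in autoreactive cells, against 14.75 and 15.32 in non-autoreactive cells. The groups overlapped, with both samples of array 2 above both of array 1. Its log2 ratio was -0.16 ± 0.12 (limma adjusted p = 0.471). Probe A_51_P500056, 124 bases from it, had levels of 12.89 and 13.13 in autoreactive cells, against 12.98 and 13.57 in non-autoreactive cells, again overlapping, and a log2 ratio of -0.27 ± 0.14. Its other 3 tested probes had log2 ratios between 0.06 and 0.08, each with overlapping groups, and that of A_51_P480408 was 0.26 on array 1 and -0.13 on array 2. Under median centring over the probes tested these 5 signs turned, from 0.46 for A_51_P500051 to -0.28 for A_51_P480408, so no direction is given for Itpr2. In that setting A_51_P500051 passed as higher (limma adjusted p = 0.0383), as did 3488 of the 22613 probes tested. Under centring of all gene spots, every tested Itpr2 probe except A_51_P480408 passed as higher, as did 14283 of the 22613 probes tested. There A_51_P500051 was 0.99 (limma adjusted p = 0.00102), and the median of all probes is 0.54. The last probe, A_51_P468269, was not well above background in any sample. No test was made of the difference between Itpr1 and Itpr2.

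Stim1 senses the filling of the calcium store from within the endoplasmic reticulum. Its probe A_51_P188373 (chromosome 7, 98482676 to 98482735, plus strand) had levels of 12.75 and 12.58 in autoreactive cells, against 12.99 and 12.94 in non-autoreactive cells. Both autoreactive samples lay below both non-autoreactive samples, but the log2 ratio of -0.30 ± 0.12 did not pass (limma adjusted p = 0.219). Such a separation was common, being found at 21.3% of all probes in this direction and at 24.4% with both autoreactive samples above. The members' 19 tested probes had 7 of the first kind and 2 of the second. Under median centring of all gene spots, the Stim1 probe A_51_P188373 passed as higher at 0.52 (limma adjusted p = 0.0101), where the median of all probes is 0.54. So did 14283 of the 22613 probes tested in that setting. A second Stim1 probe, A_52_P363077, was well above background in the non-autoreactive sample of 1 array and was not tested. Orai1, the pore-forming subunit of the entry channel, had 1 probe, A_52_P405994 (chromosome 5, 122263534 to 122263593, plus strand), with levels of 8.91 and 8.85 in autoreactive cells, against 8.98 and 8.96 in non-autoreactive cells. These levels were nearly alike, and the log2 ratio was -0.09 ± 0.12 (limma adjusted p = 0.671).

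Prkcb encodes the beta isoform of protein kinase C, which B cells use to pass the receptor signal on to NF-kB. Probe A_52_P51355 (chromosome 7, 118552657 to 118552716, plus strand) had levels of 13.58 and 14.18 in autoreactive cells, against 14.03 and 14.59 in non-autoreactive cells. The groups overlapped, with the sample of array 2 the brighter in each, and the ratio hardly differed between arrays, at -0.45 and -0.42. The mean log2 ratio was -0.43 ± 0.12 (limma adjusted p = 0.108) and turned to 0.05 under median centring of the probes tested. Probe A_52_P328867 had levels of 11.67 and 11.81 in autoreactive cells, against 11.98 and 12.10 in non-autoreactive cells. Here the groups were separate, and the log2 ratio was -0.30 ± 0.12 (limma adjusted p = 0.217).

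Prkcd encodes the delta isoform, which is known from mouse knockouts to restrain B cell proliferation and to be needed for B cell tolerance. Probe A_51_P460734 (chromosome 14, 28025454 to 28025513, minus strand) had levels of 13.11 and 13.35 in autoreactive cells, against 13.40 and 13.91 in non-autoreactive cells. The groups were separate, though the lowest non-autoreactive sample stood only slightly above the highest autoreactive one. Its log2 ratio was -0.42 ± 0.13 (limma adjusted p = 0.138). Probe A_52_P197498 had levels of 11.28 and 11.67 in autoreactive cells, against 11.45 and 12.04 in non-autoreactive cells, which overlapped, and a log2 ratio of -0.27 ± 0.13 (limma adjusted p = 0.267). After loess none of the 4 protein kinase C probes passed, and all 4 were below 0 on both arrays. Under median centring of all gene spots they stood between 0.43 and 0.59, against a median of 0.54 over all probes. In that setting all 4 passed as higher (limma adjusted p from 0.00803 to 0.0240), as did 14283 of the 22613 probes tested.

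**Figure D2:**
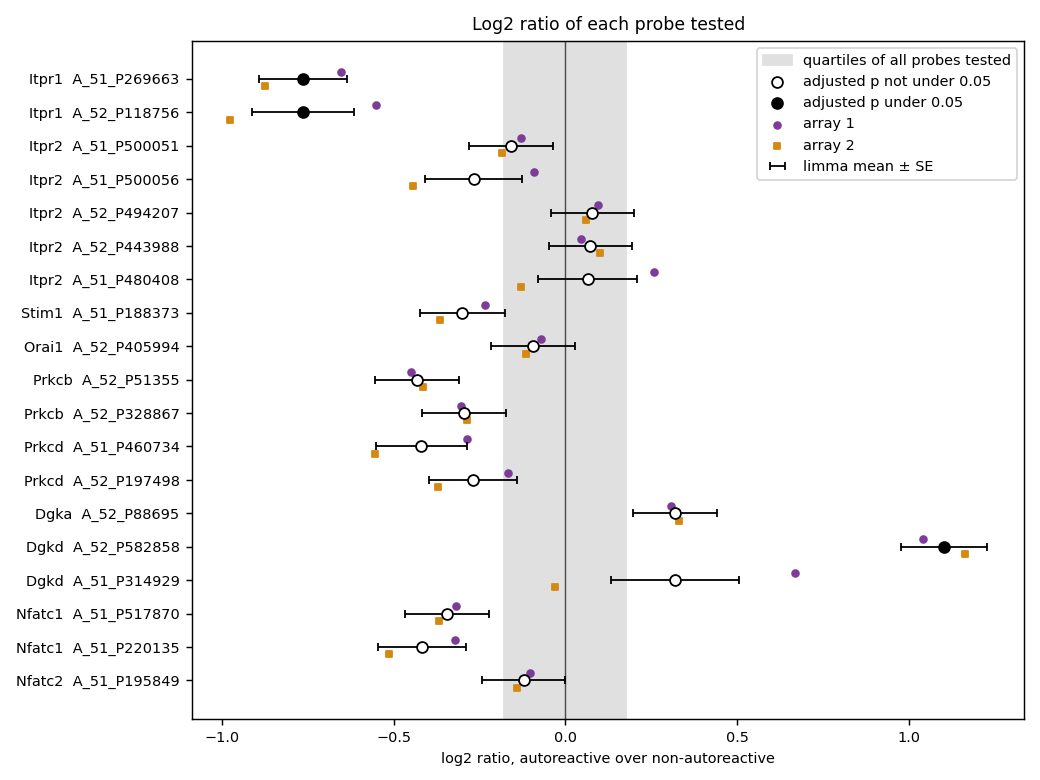
Log2 ratio, autoreactive over non-autoreactive, of each tested probe on array 1 and array 2, with limma's mean and SE and a grey band from -0.18 to 0.18 for the quartiles of all probes tested. The brighter Dgkd probe stands apart on the right at 1.10 and both Itpr1 probes on the left at -0.76, while the other probes lie between -0.43 and 0.32.

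Dgkd, the delta isoform of diacylglycerol kinase, was higher in autoreactive cells at 1 of its 2 probes. The enzyme phosphorylates diacylglycerol to phosphatidic acid and so ends its signal. Probe A_52_P582858 (chromosome 1, 87848057 to 87848116, plus strand) had levels of 15.87 and 15.97 in autoreactive cells, against 14.82 and 14.81 in non-autoreactive cells. The samples of each group lay close together and the groups were far apart. The arrays gave log2 ratios of 1.04 and 1.16, with a mean of 1.10 ± 0.12 (SE, n = 2 arrays, limma adjusted p = 0.00918), a rank of 216 from the highest of all probes tested. It passed in all 10 other settings with a test, with log2 ratios between 0.94 and 2.32.

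The second Dgkd probe, A_51_P314929, lies 78 bases from the first, at 87848195 to 87848254, and is listed under another cDNA clone. It had levels of 10.97 and 11.14 in autoreactive cells, against 10.30 and 11.17 in non-autoreactive cells. On array 1 the autoreactive sample was the higher, and on array 2 the samples were nearly equal, with log2 ratios of 0.67 and -0.03. The mean was 0.32 ± 0.19 (limma adjusted p = 0.352), so the change at Dgkd was seen by the first probe and not established by the second. The first probe's ratio exceeded the second's by 0.37 on array 1 and 1.19 on array 2, a difference that was not tested.

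Because Dgkd was the member with the largest change, its promoter is shown, from RefSeq on assembly GRCm38.p6, at chr1:87853037-87853286 on the plus strand, the 250 bases before the annotated start. The build of the probe coordinates is not given, so probe positions cannot be set against this one. Capitals mark GGAAA, the core that NFAT proteins bind, which was searched on both strands (TTTCC on the other).

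Dgkd promoter: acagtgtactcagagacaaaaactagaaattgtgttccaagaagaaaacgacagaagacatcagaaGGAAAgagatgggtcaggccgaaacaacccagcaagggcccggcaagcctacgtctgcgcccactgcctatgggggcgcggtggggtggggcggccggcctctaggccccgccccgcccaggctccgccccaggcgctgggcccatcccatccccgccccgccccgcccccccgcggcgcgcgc

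The window held 1 match, and 55.6% of the 32851 RefSeq promoters of this length hold at least 1, so the match is common. The window is rich in G and C, at 67.2% against a median of 52.4%. Windows of 8 of the 10 members are described here. None is given for Itpr1, and the chromosome of Nfatc1 was left out of this listing, so nothing is said of their promoters. The windows of Itpr2, Stim1, Orai1, Prkcb and Prkcd held no match of these letters, while Dgka and Nfatc2 held at least 1 in some or all of their annotated windows.

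Dgka, the alpha isoform of the kinase, which in T cells limits Ras activation by diacylglycerol, had 1 probe, A_52_P88695 (chromosome 10, 128221968 to 128222027, minus strand). Its levels were 13.45 and 13.53 in autoreactive cells, against 13.14 and 13.20 in non-autoreactive cells. The groups were separate and the log2 ratios on the arrays, 0.31 and 0.33, were close to each other. The mean of 0.32 ± 0.12 did not pass (limma adjusted p = 0.192). Under median centring of all gene spots it was 1.22, or 0.68 relative to the median of all probes, and under centring of the probes tested it was 0.68, and both of these passed (limma adjusted p = 0.000526 and 0.0101). Among the 22613 probes tested, 14283 passed as higher under the first centring and 3488 under the second. Dgka and the Dgkd probe A_52_P582858 were the 2 tested probes with both autoreactive samples above both non-autoreactive ones.

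Nfatc1 encodes an NFAT factor whose own transcription rises with calcineurin signalling in lymphocytes. Probe A_51_P517870 (chromosome 18, 80893268 to 80893327, minus strand) had levels of 10.28 and 10.81 in autoreactive cells, against 10.60 and 11.18 in non-autoreactive cells. The groups overlapped, with the sample of array 2 the brighter in each, while the arrays gave log2 ratios of -0.32 and -0.37. The mean log2 ratio was -0.34 ± 0.12 (limma adjusted p = 0.168). Probe A_51_P220135, listed under another Nfatc1 transcript 41715 bases away, had levels of 9.11 and 9.13 in autoreactive cells, against 9.44 and 9.65 in non-autoreactive cells. Here both autoreactive samples were the lower, and the log2 ratio was -0.42 ± 0.13 (limma adjusted p = 0.129). It passed only under median centring of the probes tested, at -0.50 (limma adjusted p = 0.0297), among the 9 other settings that tested it, and was 0.04 under centring of all gene spots, or -0.50 relative to the median of all probes. Under centring of the probes tested, 3935 of the 22613 probes passed as lower.

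Nfatc2, the other NFAT factor of lymphocytes, had 4 probes, of which 1 was tested. Probe A_51_P195849 (chromosome 2, 168272495 to 168272554, minus strand) had levels of 8.16 and 8.31 in autoreactive cells, against 8.27 and 8.45 in non-autoreactive cells. The groups overlapped, and the arrays gave log2 ratios of -0.10 and -0.14, with a mean of -0.12 ± 0.12 (limma adjusted p = 0.579). Its other 3 probes were not well above background in any sample, so nothing is given for them.

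**Figure D3:**
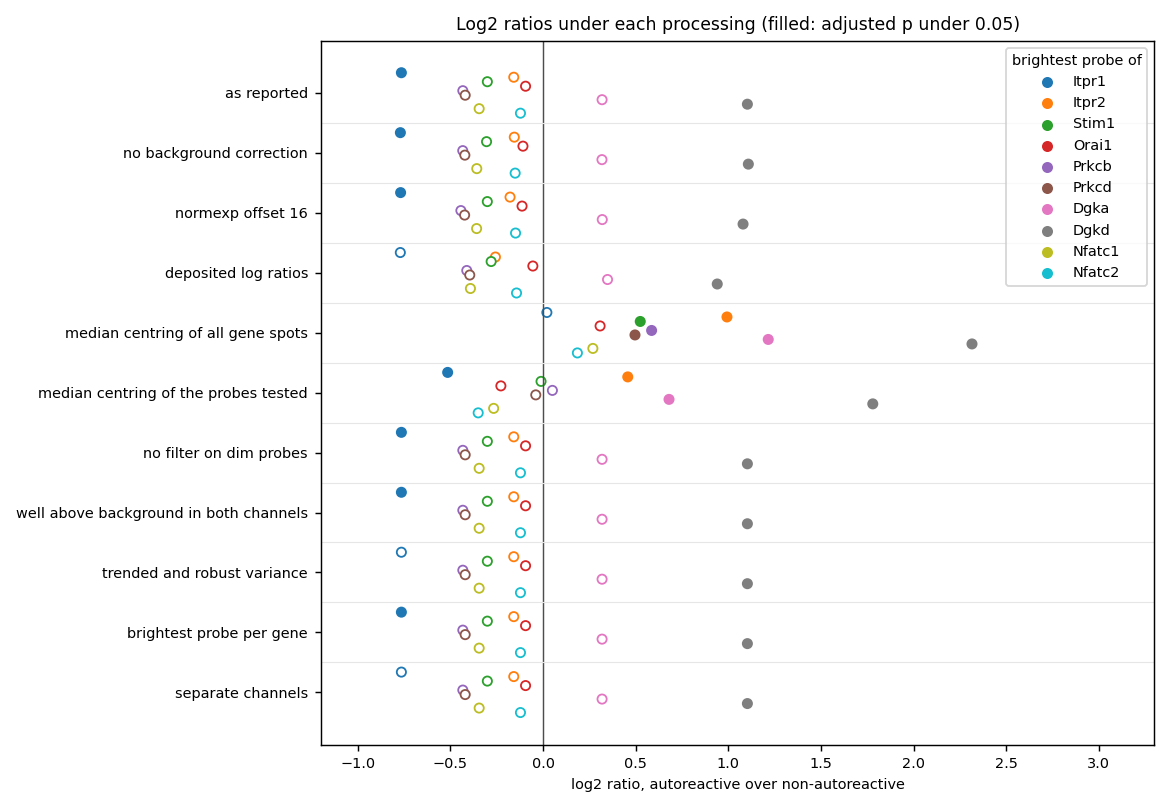
Log2 ratio, autoreactive over non-autoreactive, of the brightest probe of each member under each processing setting, a point per gene, filled where limma's adjusted p is under 0.05. Dgkd is filled and above 0 in every setting, and all 10 points lie above 0 under median centring of all gene spots, where the median of all probes is 0.54.

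Around the members, 97 further genes of the same pathway were listed by function, of which 93 were on the array and 82 were tested by their brightest probe. Of these, 3 were higher, 6 were lower and 73 did not pass, so that 9 of 82 passed beside 6.16% of all genes. They had a median log2 ratio of -0.11, against 0.00 over all genes. The same 6.16% of all genes is the background for each list's count below. The list of members and these lists were both drawn up with results of these data known, and their counts are descriptions.

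Among the 12 tested genes of calcium release and entry, only Itpr3 passed, and it was lower. This last member of the inositol trisphosphate receptor family had levels of 14.82 and 14.62 in autoreactive cells, against 15.76 and 15.78 in non-autoreactive cells. The groups were well apart, and the log2 ratio was -1.05 ± 0.13, a 2.07-fold lower value (limma adjusted p = 0.0113), though 0.14 under median centring of all gene spots, where the median of all probes is 0.54. The store sensor Stim2 was the largest of those that did not pass, at -0.52 (limma adjusted p = 0.0730). Of 6 pumps and exchangers, Atp2a3, the endoplasmic reticulum calcium pump of blood cells, was lower at -0.65 ± 0.12 (limma adjusted p = 0.0385), and 0.25 under that centring, and the mitochondrial exchanger Slc8b1 stood at -0.47 without passing.

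Upstream of the members, 1 of 11 phospholipase and inositol phosphate genes passed. Plcg1, the gamma 1 phospholipase C, was higher, with levels of 11.32 and 11.34 in autoreactive cells, against 10.36 and 10.44 in non-autoreactive cells. The log2 ratio was 0.93 ± 0.12 (limma adjusted p = 0.0137). A second Plcg1 probe was also higher at 0.68 (limma adjusted p = 0.0339), and another, from a different stretch of the gene, stood at -0.37 without passing (limma adjusted p = 0.192). The inositol phosphatase gene Inpp1 had 0.47 and did not pass.

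Among 14 other diacylglycerol effectors, Rasgrp1, a Ras exchange factor with a diacylglycerol-binding domain, was lower. Its levels were 13.55 and 13.64 in autoreactive cells, against 14.13 and 14.31 in non-autoreactive cells. The log2 ratio was -0.63 ± 0.12 (limma adjusted p = 0.0438), its second probe stood at -0.33 without passing, and under median centring of all gene spots the brighter probe was 0.36 and passed as higher (limma adjusted p = 0.0459), where the median of all probes is 0.54. In that setting 14283 of the 22613 probes tested passed as higher. The list had a median of -0.33, and Prkch, a further protein kinase C, stood at -0.62 without passing, with -0.22 on array 1 and -1.02 on array 2. Its autoreactive level on array 2, 6.26, was not well above background, so the ratio of that array is poorly determined.

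Among 10 other diacylglycerol kinases and lipid phosphatases, no kinase passed, and Plpp3, a membrane lipid phosphatase, was lower. Its levels were 7.29 and 7.14 in autoreactive cells, against 9.60 and 9.88 in non-autoreactive cells. At -2.52 ± 0.15 this was the largest change among the pathway genes, and it passed in all 10 other settings with a test (limma adjusted p = 0.00172). Its autoreactive levels were near the lowest flagged well above background there, 6.32 and 6.79, so its size is poorly determined. The value was -2.81 with normexp offset 16, -3.24 with the deposited log ratios and -2.19 under median centring of all gene spots. Plpp2, of the same family, had 0.51 and did not pass.

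Downstream of calcium, 3 of 12 genes of calmodulin, calcineurin and its inhibitors passed. Calm2, which encodes calmodulin, was higher at 0.83 ± 0.12 (limma adjusted p = 0.0189), with 0.38 at a second probe that did not pass. With the deposited log ratios these values were 0.35 and 0.08, and neither passed (limma adjusted p = 0.241 and 0.801). Ppp3cc, a catalytic subunit of calcineurin, was higher at both probes, at 0.73 ± 0.12 and 0.72 ± 0.12 (limma adjusted p = 0.0276 and 0.0298). Rcan2, a calcineurin inhibitor, was lower at -0.76 ± 0.15 (limma adjusted p = 0.0478), and the anchoring gene Akap5 had -0.53 without passing. None of the 10 other NFAT family and NFAT kinase genes passed by limma, and none had an unadjusted p under 0.05, with Csnk1a1 the largest at 0.30. Other probes of Csnk1a1 ranged from -0.23 to 0.12.

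Of 7 calmodulin kinase genes, Camkk1, which activates other calmodulin kinases, was lower. It had levels of 8.84 and 8.42 in autoreactive cells, against 10.35 and 10.36 in non-autoreactive cells, and a log2 ratio of -1.72 ± 0.15 (limma adjusted p = 0.00476). Camk2d did not pass by its brightest probe at 0.57 (limma adjusted p = 0.0546), but a second probe was higher at 0.68 (limma adjusted p = 0.0351), and another stood at -0.81 without passing (limma adjusted p = 0.0752). Over the 10 other settings with a test, the calls of Plcg1 and Camkk1 held in 9, that of Calm2 in 8, that of Ppp3cc in 7 and that of Itpr3 in 6. Those of Atp2a3 and Rcan2 held in 4 and that of Rasgrp1 in 2, with its direction turned in 1 more.

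**Figure D4:**
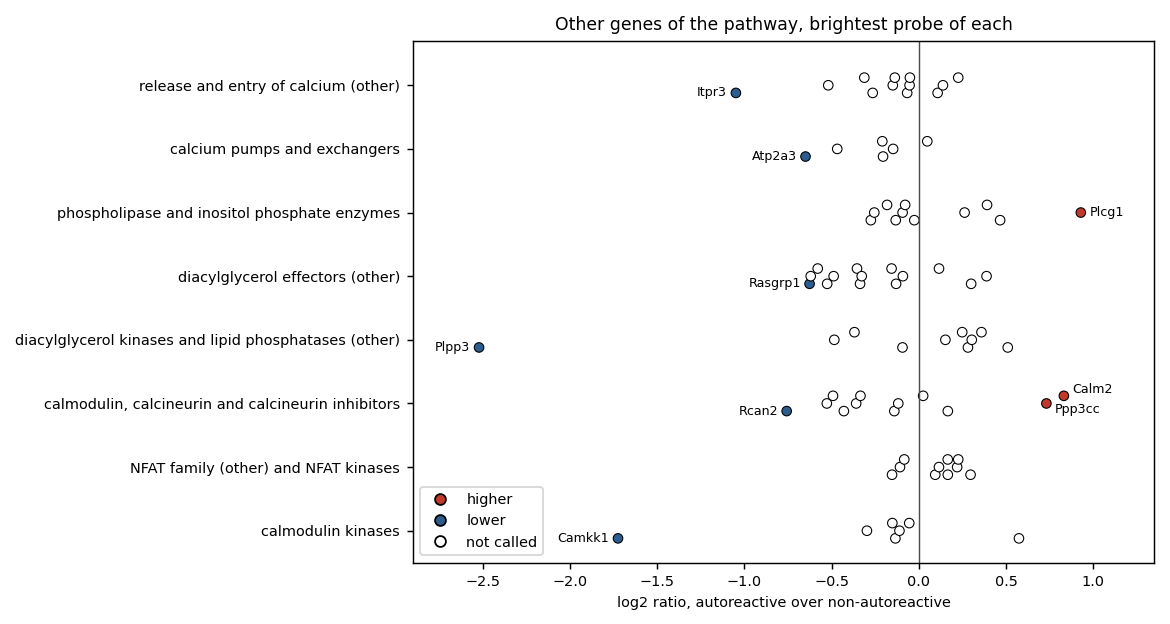
Log2 ratio, autoreactive over non-autoreactive, of the brightest probe of each of the 82 tested pathway genes outside the members, by list, a point per gene, coloured where limma's adjusted p is under 0.05. The 6 lower genes lie between -0.63 and -2.52 and the 3 higher ones between 0.73 and 0.93, and only the calmodulin and calcineurin list holds both kinds.

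The members' ratio was lower on array 2 than on array 1 at 14 of 19 probes, beside 51.2% of all probes tested. Of the other cell types, plasmacytoid dendritic cell, T cell and erythroid markers had separate summed intensities between the groups, lower in autoreactive cells. The T cell sums were close, at 11798 and 10157 in autoreactive cells, against 12240 and 12552 in non-autoreactive cells. These sums rest heavily on Lck, the brightest T cell marker, which had a log2 ratio of -0.10. Thy1, Cd8a, Cd3g and Cd3d stood at -1.08, -0.79, -0.54 and -0.38, and Cd3e at 0.16. No T cell marker passed. Plasma cell markers had separate sums that were higher, but these markers moved both ways. Sdc1 and Irf4 were higher at 1.94 and 0.89, Jchain was lower at -1.65, and Prdm1 did not pass at 0.19. The sums of natural killer cell, myeloid and megakaryocyte markers overlapped. The 6 plasmacytoid dendritic cell markers were all well above background in every sample, and their summed intensity ranged from 6569 to 11088 in autoreactive cells, against 20226 to 27539 in non-autoreactive cells. The median of their log2 ratios was -0.85 for array 1 and -2.66 for array 2. Only Cox6a2 of them passed, at -1.22 (limma adjusted p = 0.00950), and the others stood between -1.82 and -1.53 without passing. Slc4a1 was the only erythroid marker that passed, at -0.75, and Ltf the only myeloid one, at -0.84 (limma adjusted p = 0.0481 and 0.0455). The summed intensity of 7 natural killer cell markers ranged from 3005 to 8055 in autoreactive cells, against 7864 to 8745 in non-autoreactive cells, with median ratios of -0.04 and -1.33. That of 10 myeloid markers ranged from 457310 to 522816 in autoreactive cells, against 432731 to 594328 in non-autoreactive cells, with medians of 0.08 and -0.72. The 8 B lineage markers had medians of -0.23 and 0.03 and moved both ways. Their summed intensity ranged from 212129 to 247001 in autoreactive cells, against 328377 to 358675 in non-autoreactive cells. Blk was higher at 0.69 and Pax5 and Ms4a1 were lower at -1.05 and -3.61. These sums rest heavily on Ms4a1, the brightest of them in non-autoreactive cells, with levels of 17.51 and 17.10, against 13.49 and 13.90 in autoreactive cells. Cd79b, the next brightest there, went the other way without passing, with 17.04 and 17.21 in autoreactive cells, against 16.55 and 16.32. Medians were -0.11 and -0.70 for T cell markers, -0.53 and -0.49 for erythroid markers, 0.86 and 0.22 for plasma cell markers and 0.20 and -0.25 for megakaryocyte markers. The part of other cells in the results for Dgkd, Itpr1 and all other genes described here was not tested.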

How the data were processed

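The deposited scanner files hold, per the file headers, the mean intensity of each spot and the median intensity of its local background, per channel, extracted by Agilent Feature Extraction 9.5.1.1. They also hold that program's log10 ratio of Cy5 over Cy3, dye-normalized per the file headers, which the deposited series table repeats to within 5e-10. Per the labels' protocols, 0.5 ug of RNA per sample was amplified and labelled.

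Intensities were corrected with normexp (offset 50) and loess-normalized within arrays in limma 3.58.1 (R 4.3.3), with control and outlier spots at weight 0. Outlier spots were removed, spots of a probe averaged, and probes kept if, on both arrays, a channel or more was flagged well above background, which gave 22613 probes and 15105 genes by their brightest probe. Log2 ratios were tested against 0 with lmFit and eBayes, two-sided. Levels per channel were Aquantile-scaled and stay open to dye bias, since the dyes were not swapped. Ratios were taken as Cy5 over Cy3, which the labels give as autoreactive over non-autoreactive.

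Names came from a RefSeq gene table (GRCm38.p6), by accession for 22951, current symbol for 6659 and synonym for 3109, while 8455 kept the name in the file. The members and lists were chosen with earlier results of these data known. All members are named, with every pathway gene that passed and, per list, the largest that did not, with further probes where they differ in call or sign. The fit was also run on simulated log2 ratios with known changes. These held no dye bias and skipped the normalization, so that run bears on neither. Figures were drawn with matplotlib 3.10.9. Probe sequences were not used here.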

Additional observations from a re-analysis of the deposited data

How the results depend on the processing

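The alternatives were 2 other background corrections, the deposited log ratios, 2 median centrings in place of loess, 2 other filters, a trended and robust variance, the brightest probe per gene and separate channels. Against 3 of the members' probes, 1 passed with the deposited ratios, with the trended and robust variance and with separate channels, 12 under centring of all gene spots and 6 under centring of the probes tested. Against 9 pathway genes, the same settings gave 4, 3, 2, 57 and 27. Against 1212 of all probes, 840 passed with the deposited ratios, 474 with the trended and robust variance, 216 with separate channels and 804 without a filter. By brightest probe 763 genes passed. Under centring of all gene spots 14799 probes passed, and under centring of the probes tested 7423. The higher share of calls was 59.2% after loess, 96.5% and 47.0% under these centrings and 96.6% with the trended variance.

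Centring of all gene spots turned 21 log2 ratios above 0: Itpr1 A_51_P269663 (0.021), Itpr2 A_51_P500051 (0.99) and A_51_P500056 (0.61), Stim1 (0.52), Orai1 (0.31), Prkcb (0.59 and 0.43), Prkcd (0.50 and 0.43), Nfatc1 (0.27 and 0.038), Nfatc2 (0.19), Itpr3 (0.14), Stim2 (0.18), Atp2a3 (0.25), Slc8b1 (0.074), Rasgrp1 (0.36 and 0.12) and Csnk1a1 (0.82, 0.80 and 0.48). The median of all probes was then 0.54. Centring of the probes tested turned 9: Itpr2 (0.46, 0.070, -0.022, -0.10 and -0.28), Prkcb A_52_P51355 (0.050), Csnk1a1 (0.29 and 0.26) and Camk2d A_52_P169412 (-0.15). The cause of these changes was not tested. Itpr1 A_52_P118756 also missed the threshold with offset 16 (limma adjusted p = 0.0511), and over its alternatives limma's adjusted p ranged from 0.0219 to 0.726. For Itpr1 A_51_P269663 it ranged from 0.0250 to 0.904.

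With either array left out no test was possible, and the values are those of the single arrays. The ratio that was tested already pairs the channels of an array. No further pairing was possible because the non-autoreactive samples carry no replicate number. Slide or scan as a block was not run, since both arrays lay on 1 slide and 1 scan. With 1 residual degree of freedom and dyes not swapped, small differences cannot be resolved, and probes not well above background have no usable ratio.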
